A study of Mus musculus with 6 samples.

Results

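The platelet-derived growth factor (PDGF) ligands Pdgfa, Pdgfb, Pdgfc and Pdgfd, their receptors Pdgfra and Pdgfrb, hepatocyte growth factor (Hgf) and its receptor Met were followed through the cells of congested mouse liver. These 8 genes were taken by symbol, and all 8 were among the 25369 genes of the deposited count tables. The livers came from wild-type male mice that were 8 to 10 weeks old when the inferior vena cava was partially ligated (pIVCL), an operation that congests the liver. Every mouse had the operation, so no liver without congestion was compared. From 2 weeks after surgery, osmotic pumps gave CWHM-12, an inhibitor of integrins that contain the αV subunit, at 100 mg/kg/day, or the vehicle DMSO. Livers were taken after 4 weeks of treatment, and there were 3 CWHM-12 libraries and 3 DMSO libraries of single cells.

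PDGF ligands act as dimers on receptor tyrosine kinases of mesenchymal cells. PDGF-A and PDGF-B leave the cell in active form, whereas PDGF-C and PDGF-D carry a CUB domain that a protease must first remove. In injured liver, PDGF receptor signalling is known as a strong drive for the division and migration of hepatic stellate cells, the vitamin A-storing pericytes of the sinusoid. HGF runs in the other direction in textbook accounts: mesenchymal cells secrete it as an inactive precursor, proteases such as HGF activator cleave it, and MET on epithelial cells receives it. The comparison asks where each ligand and receptor is expressed in the congested liver, and whether any of them differs when αV integrins are inhibited.

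Levels are given as CPM, the unique molecular identifiers (UMIs) of a gene per 1000000 UMIs of a cell class in a library. Each class was tested on its summed counts, because cells of a library are not replicates. The libraries held 31294555 to 48100436 UMIs in the CWHM-12 group and 28220477 to 44557538 in the DMSO group, and 37982 cells were kept. DMSO 2 stood apart: it kept the fewest cells after filtering (3163, against 5934 to 8447 in the other libraries before doublets were removed). Liver sinusoidal endothelial cells (LSEC, 10557 cells), hepatocytes (8557), Kupffer cells (5819), stellate cells (2506) and cholangiocytes (806) were the main classes among 18, and 15 classes had enough libraries to test. Class names mean that the cells resemble the named type by marker genes, and 2380 cells stayed unnamed. The libraries fall into 2 batches by the labels. Batch 2024.6 holds CWHM-12 1, DMSO 1 and DMSO 2, and batch 2024.12 holds CWHM-12 2, CWHM-12 3 and DMSO 3.

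The main sources differed among the 8 genes, and some genes shared a source. Stellate cells held 74.8% of the Pdgfra UMIs, 77.3% of the Pdgfrb UMIs and 66.6% of the Hgf UMIs of all kept cells. LSEC held 49.9% of the Pdgfb UMIs and 43.7% of the Pdgfd UMIs, and Kupffer cells 50.6% of the Pdgfc UMIs. These shares depend on how many cells of each class were recovered, and the suspension was set up to hold 10% hepatocytes. Levels per class do not, and they placed cholangiocytes first for Pdgfc and Pdgfd, and vascular endothelium beside LSEC for Pdgfb.

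**Figure D1:**
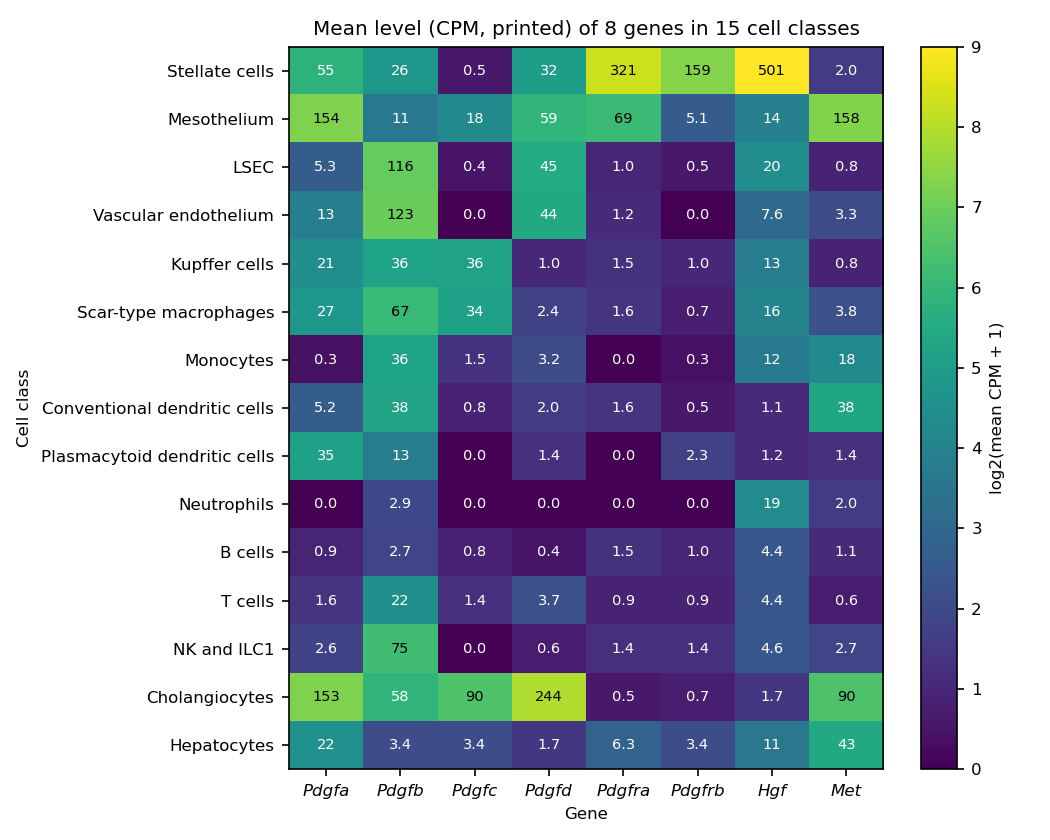
Mean level of each gene (columns) in each of 15 cell classes (rows), in CPM over the libraries with at least 20 cells of the class. Numbers are mean CPM and colour is log2(mean CPM + 1). Pdgfra, Pdgfrb and Hgf stand out in stellate cells, at 321, 159 and 501 CPM.

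Pdgfb encodes the B chain, which binds both PDGF receptors and is known as the endothelial signal that recruits pericytes. In LSEC it was at 117, 149.9 and 54.0 CPM in CWHM-12 1 to 3, and at 133, 42.8 and 196 CPM in DMSO 1 to 3. Vascular endothelium held 114, 149 and 122 CPM in the CWHM-12 libraries, against 108, 46.6 and 199 CPM in the DMSO libraries. DMSO 2 was the lowest and DMSO 3 the highest library in both endothelial classes, so the DMSO range enclosed the CWHM-12 range. The mean over 6 libraries was 123.2 ± 50.3 CPM (SD) in vascular endothelium and 116 ± 58.4 CPM in LSEC, and 3 of 6 libraries had the higher level in vascular endothelium (difference 0.16 ± 0.51 log2 units, exact sign-flip test over libraries, p = 0.688). NK and ILC1 cells followed at 75.5 ± 45.6 CPM, scar-type macrophages (Gpnmb and Trem2 among their leading genes) at 67.4 ± 26.2 CPM and cholangiocytes at 57.6 ± 15.2 CPM, and the ranges of neighbours in this order overlapped. Stellate cells had 26.3 ± 13.95 CPM. By mean marker z-score over clusters, the scar-type macrophages scored 1.615 on the Kupffer cell list and 1.505 on the scar-type list. Trem2 was also a leading gene of Kupffer cell cluster 6.

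Among the LSEC clusters, Pdgfb was not evenly spread. Cluster 0, led by genes of periportal sinusoids such as Efnb1 and Adam23, averaged 64.4 ± 31.5 CPM over 6 libraries, and cluster 10, led by Selp and Lyve1, averaged 162 ± 68.8 CPM. In each of the 6 libraries cluster 10 was above cluster 0. The share of LSEC in cluster 10 was 22.9%, 7.1% and 0.7% in CWHM-12 1 to 3, against 26.8%, 17.5% and 30.9% in DMSO 1 to 3. CWHM-12 3, the library with the lowest Pdgfb in LSEC of its group, thus held the fewest cells of the cluster with the highest level. DMSO 2 was at or below 59.5 CPM in every LSEC cluster with at least 20 of its cells.

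In the 9 classes with 6 libraries and at least 20 CPM of Pdgfb, DMSO 2 gave the lowest level in 7. It gave the highest Pdgfd level in 4 of 4 such classes and the highest Met level in 3 of 3. Among all genes with at least 20 CPM in the same classes, 22.9% of 3911 were lowest in DMSO 2 in at least as many classes as Pdgfb, 13.6% of 5031 were highest there as often as Pdgfd, and 7.46% of 4019 as often as Met. The position of DMSO 2 was thus shared by 894, 685 and 300 genes.

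Pdgfd, whose product acts mainly on PDGFRB once its CUB domain is cleaved, was highest in cholangiocytes, the epithelium of the bile ducts. It stood at 225, 227 and 199 CPM in CWHM-12 1 to 3, against 247, 375 and 194 CPM in DMSO 1 to 3. Mesothelium, the lining of the liver surface, was next at 59.2 ± 23.2 CPM (5 libraries), then LSEC at 45.0 ± 8.23 CPM, vascular endothelium at 43.5 ± 18.9 CPM and stellate cells at 32.4 ± 8.39 CPM. The lowest cholangiocyte library lay above the highest mesothelial one. Cholangiocytes exceeded mesothelium by 2.08 ± 0.30 log2 units (SD) in 5 of 5 libraries (exact sign-flip test, p = 0.0625, the smallest 5 libraries allow). The ranges of mesothelium, LSEC, vascular endothelium and stellate cells overlapped with their neighbours, and the remaining tested classes averaged at most 3.7 CPM. LSEC held more Pdgfd UMIs than cholangiocytes (2056 against 1343) because there were more of them.

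Pdgfc, the other ligand with a CUB domain and one that acts mainly on PDGFRA, was also highest in cholangiocytes. Its level was 92.5, 63.1 and 80.5 CPM in the CWHM-12 libraries, against 135, 100.3 and 68.8 CPM in the DMSO libraries. Kupffer cells, the resident macrophages, came next at 35.6 ± 10.7 CPM, with scar-type macrophages at 34.4 ± 11.5 CPM and mesothelium at 18.2 ± 10.4 CPM. The cholangiocyte and Kupffer cell ranges did not overlap, and cholangiocytes were higher in 6 of 6 libraries, by 1.34 ± 0.67 log2 units (exact sign-flip test, p = 0.031, the smallest 6 libraries allow). Kupffer cells and scar-type macrophages were not separated by their ranges. Every other tested class was at or below 3.4 CPM, stellate cells and both endothelial classes included.

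Pdgfa, the chain that binds PDGFRA, had its highest means in mesothelium (154 ± 57.7 CPM, 5 libraries) and cholangiocytes (153 ± 35.8 CPM, 6 libraries). Mesothelium had 95.5 and 149.9 CPM in CWHM-12 2 and 3, against 239, 177 and 108 CPM in DMSO 1 to 3, and CWHM-12 1 had too few mesothelial cells. Cholangiocytes had 122, 170.0 and 202 CPM in CWHM-12 1 to 3, against 158, 102 and 165 CPM in DMSO 1 to 3. Only 2 of 5 libraries were higher in mesothelium, where the mean log2 difference was -0.10 ± 0.73 (exact sign-flip test, p = 0.75), so the order of these classes was not resolved. Stellate cells followed at 55.1 ± 12.7 CPM, below cholangiocytes in 6 of 6 libraries with no overlap. Plasmacytoid dendritic cells averaged 34.7 ± 8.89 CPM, and 16.02% of them had a Pdgfa UMI.

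**Figure D2:**
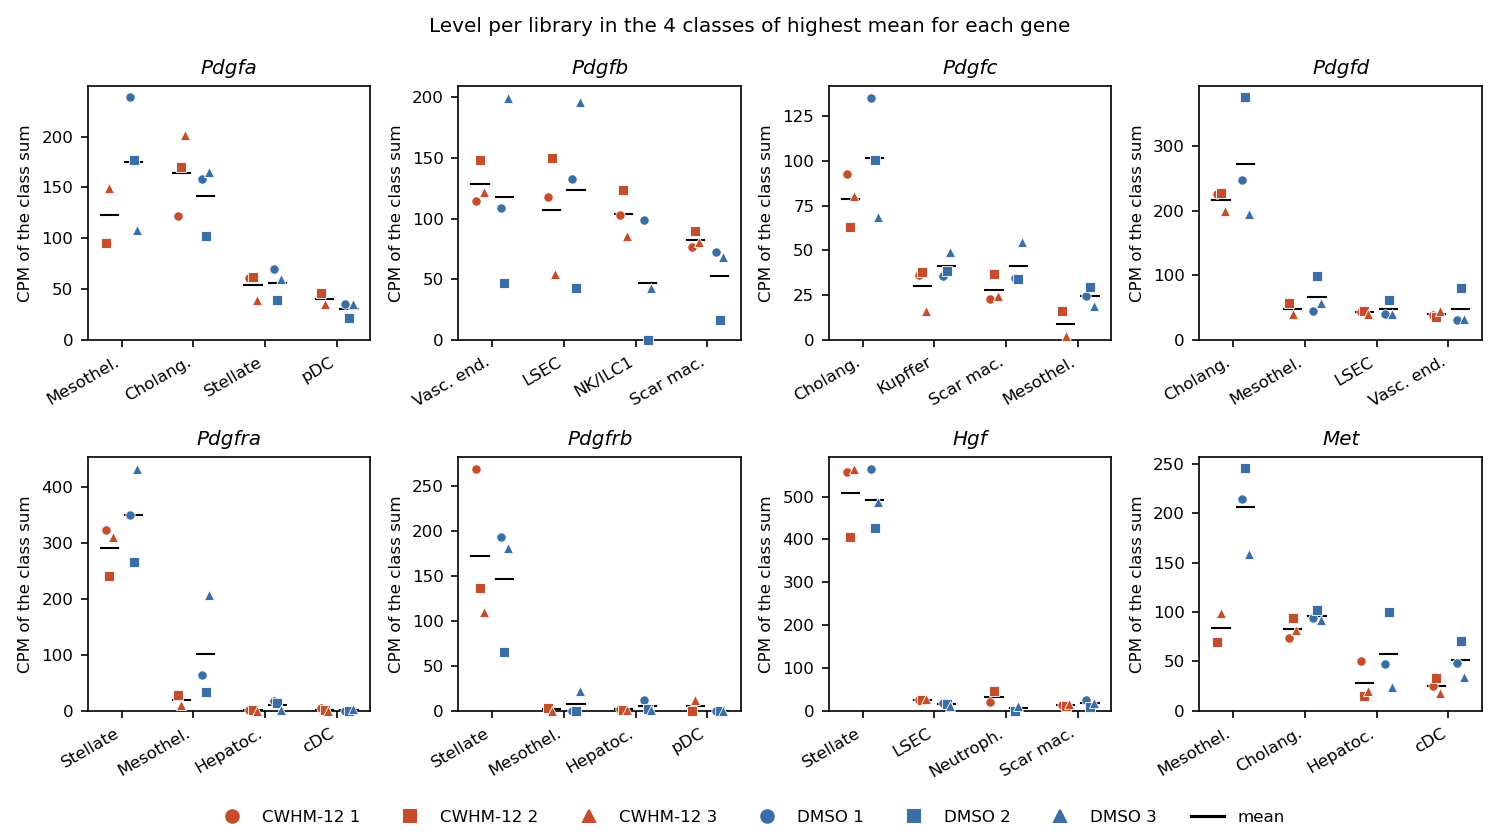
Level of each gene per library (CPM of the class sum, linear axis) in its 4 classes of highest mean, with CWHM-12 libraries left of DMSO libraries in each class and a line at the mean of each group. Vasc. end. is vascular endothelium, Mesothel. mesothelium, Cholang. cholangiocytes, Hepatoc. hepatocytes, Neutroph. neutrophils, Scar mac. scar-type macrophages, cDC and pDC conventional and plasmacytoid dendritic cells. Within a class the CWHM-12 and DMSO points mostly interleave, and the square for DMSO 2 is the lowest Pdgfb point in all 4 classes shown.

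Pdgfra encodes the receptor for the A, B and C chains. Stellate cells had 324, 241 and 311 CPM in CWHM-12 1 to 3, against 349, 266 and 432 CPM in DMSO 1 to 3, and 60.8% of them had a UMI. In B cells, which should lack it, 0.38% of cells had a UMI at a median of 2388 UMIs per cell, against 2987 in stellate cells. After each cell was thinned to 1000 UMIs the shares were 31.3% in stellate cells and 0.04% in B cells. Mesothelium was second at 68.6 ± 79.6 CPM, a mean carried by DMSO 3 at 207 CPM. Stellate cells exceeded mesothelium in 5 of 5 libraries, by 2.86 ± 1.36 log2 units (exact sign-flip test, p = 0.0625, the smallest 5 libraries allow), and all tested classes below mesothelium averaged at most 6.3 CPM.

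Pdgfrb encodes the receptor for the B and D chains and is known as a marker of pericytes. In stellate cells it was at 268, 137 and 109 CPM in CWHM-12 1 to 3, against 193, 65.6 and 181 CPM in DMSO 1 to 3. The spread was wide, with DMSO 2 lowest and CWHM-12 1 highest. Outside stellate cells, no tested class averaged more than 5.1 CPM. LSEC held 24 Pdgfrb UMIs in all 6 libraries together.

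A small cluster of 108 fibroblasts led by Dpt and Lum had the highest pooled level of both PDGF receptors. Pdgfra was at 983 CPM there (95% exact Poisson interval 894 to 1079, counting error only) and Pdgfrb at 256 CPM (211 to 307). Hgf was at 214 CPM (173 to 261) in the same cells. For Pdgfrb the lead was not clear of the spread of stellate cells, which had 65.6 to 268 CPM over the libraries. Only 2 libraries, both DMSO, had at least 20 cells of the fibroblast cluster, so treatments were not tested in it. The summed portal fibroblast markers stood at 3042 CPM in this cluster and at 80.2 CPM in stellate cluster 8, but the cluster is called by its leading gene only.

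Hgf was read mainly in stellate cells. They had 558, 405 and 563 CPM in CWHM-12 1 to 3, against 564, 426 and 488 CPM in DMSO 1 to 3. The groups overlapped and the mean over 6 libraries was 501 ± 72.5 CPM. LSEC were next at 20.3 ± 6.02 CPM, lower than stellate cells in 6 of 6 libraries by 4.60 ± 0.45 log2 units (exact sign-flip test, p = 0.031, the smallest 6 libraries allow). Neutrophils averaged 19.5 ± 19.8 CPM in 4 libraries, scar-type macrophages 15.6 ± 6.11 CPM and Kupffer cells 12.7 ± 1.65 CPM. A Hgf UMI was seen in 72.3% of stellate cells, 7.92% of LSEC, 6.62% of Kupffer cells and 0.73% of B cells, at medians of 2987, 3795, 5063 and 2388 UMIs per cell. At 1000 UMIs per cell these shares were 40.9%, 2.40%, 1.08% and 0.52%.

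The ratio of Hgf to Pdgfra differed between classes. Stellate cells had 1.48 Hgf UMIs per Pdgfra UMI over all libraries (1.13 to 1.81 per library). LSEC had 23.3, from 1027 Hgf and 44 Pdgfra UMIs, and the ratio was between 9.30 and 50.7 in each library. Kupffer cells had 8.77 and hepatocytes 2.28. The LSEC and Kupffer cell ratios thus lay above the stellate range in every library.

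Outside the tested classes, 41 basophils held 61 Hgf UMIs, or 376 CPM (95% exact Poisson interval 288 to 484, counting error only), and 24 of them (58.5%) had at least 1. Their level was 383 CPM in the CWHM-12 libraries and 371 CPM in the DMSO libraries, from 28 and 33 UMIs. No library had 20 basophils, so no test was made.

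Met, the HGF receptor, was read mainly in epithelial classes. Mesothelium had 70.0 and 98.6 CPM in CWHM-12 2 and 3, against 215, 246 and 159 CPM in DMSO 1 to 3. Cholangiocytes had 73.6, 94.0 and 81.6 CPM in the CWHM-12 libraries, against 94.5, 102 and 92.5 CPM in the DMSO libraries. Hepatocytes had 49.9, 15.1 and 20.1 CPM in CWHM-12 1 to 3, against 47.8, 99.6 and 24.4 CPM in DMSO 1 to 3. The lead of mesothelium over cholangiocytes, 0.61 ± 0.70 log2 units in 4 of 5 libraries, was not distinguished from 0 (exact sign-flip test, p = 0.188). Cholangiocytes exceeded hepatocytes in 6 of 6 libraries although the ranges overlapped. A Met UMI was present in 52.9% of mesothelial cells, 41.4% of cholangiocytes and 6.11% of hepatocytes, at medians of 6058, 6466 and 1567 UMIs per cell, and in 0.31% of B cells. After thinning to 1000 UMIs these 3 classes had 16.3%, 7.48% and 3.49%.

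Met was also found in a part of the immune cells. Conventional dendritic cells averaged 38.4 ± 18.9 CPM. Their cluster 31, led by Xcr1 and Clec9a, genes of the cross-presenting subset, averaged 68.8 ± 26.1 CPM (5 libraries), whereas cluster 27, led by Cd209a and Mgl2, averaged 4.8 ± 8.6 CPM (6 libraries). Monocytes had 18.3 ± 7.69 CPM. An unnamed cluster of 122 cells led by Mpo held 48 Met UMIs, or 49.1 CPM (36.2 to 65.1).

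Within the stellate class, all 3 leading genes differed between clusters. Cluster 8, led by Reln, Igfbp3, Col14a1 and Col3a1, had Hgf at 676 ± 86.3 CPM, Pdgfra at 440.0 ± 61.9 CPM and Pdgfrb at 208 ± 82.2 CPM (SD, 6 libraries). Cluster 15, led by Rgs5 and Colec10, had them at 253 ± 98.1, 156 ± 30.4 and 77.5 ± 25.98 CPM. Pdgfb ran the other way, at 4.0 ± 5.0 CPM in cluster 8 and 60.4 ± 28.2 CPM in cluster 15. Cluster 15 also held LSEC markers. The summed level of the 10 LSEC markers was 13164 CPM there, against 719 CPM in cluster 8 and 25983 CPM in LSEC, and the stellate list stood at 29752 CPM in cluster 15 and 64927 CPM in cluster 8. There were 4.86 Pdgfb UMIs per 1000 UMIs of the LSEC list in cluster 15 and 4.51 in LSEC. Cluster 15 made up 25.2%, 41.2% and 53.1% of stellate cells in CWHM-12 1 to 3, against 26.3%, 31.9% and 15.7% in DMSO 1 to 3, so results for the stellate class are given with and without it where they differ.

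Hepatocyte Met was concentrated in cluster 11, at 118 ± 63.3 CPM over 6 libraries, against 20.99 ± 13.3 CPM in cluster 4. Cluster 11 was led by Gm29966 and Cyp3a25, had 15549 CPM of the nuclear RNA Malat1 (222 CPM in cluster 4) and a stellate marker sum of 1889 CPM (218 CPM in cluster 4). Hgf was at 32.03 ± 35.96 CPM in it. Clusters 11 and 30, both high in Malat1, made up 28.2% and 50.2% of the hepatocytes of DMSO 2, the library with the highest hepatocyte Met. The part of the stellate transcripts in these values was not tested.

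**Figure D3:**
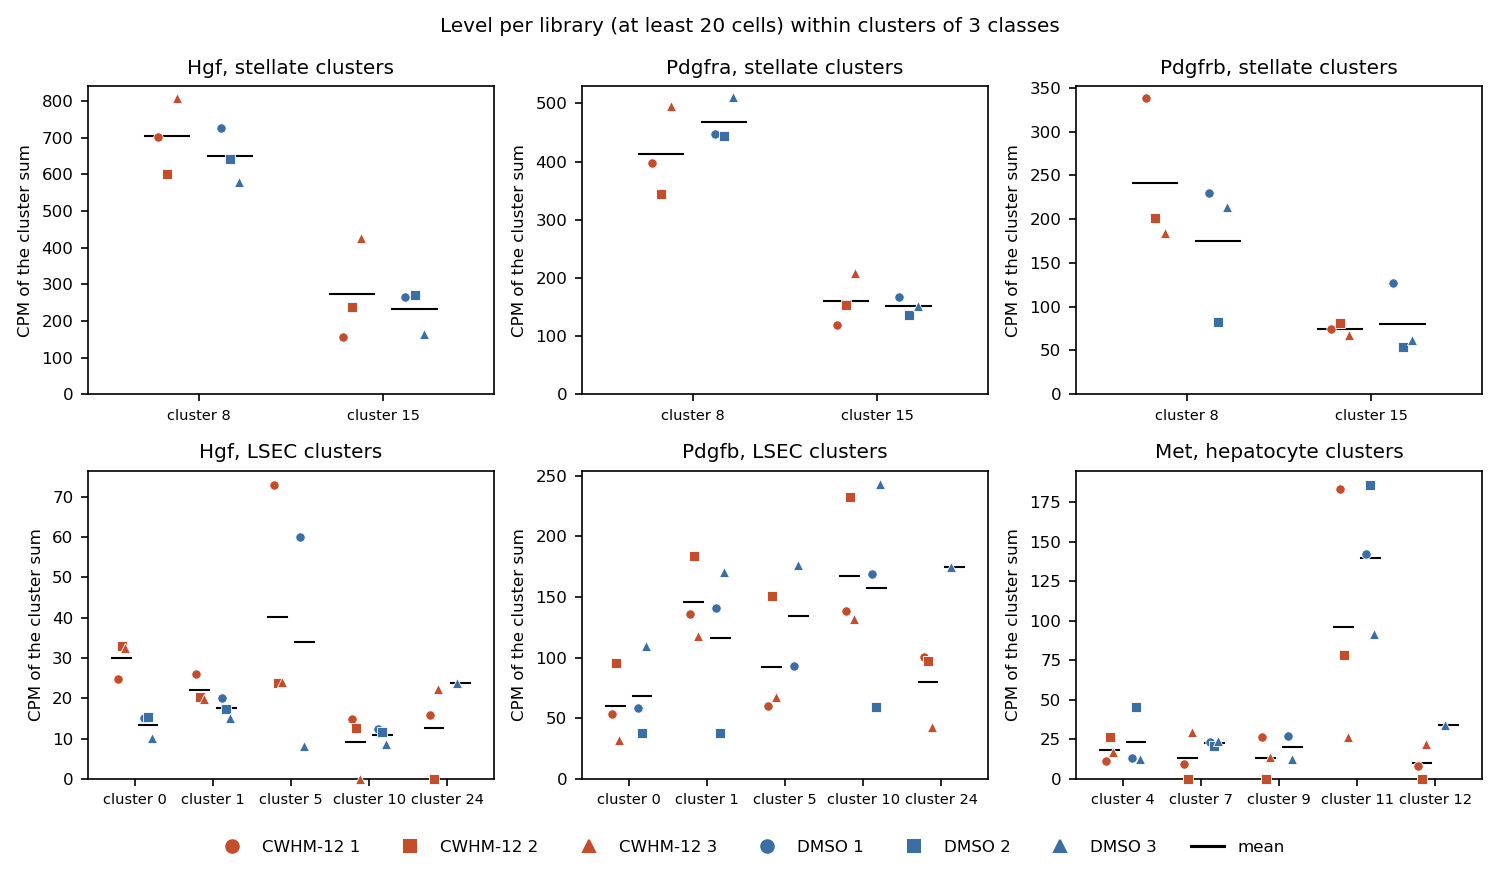
Level per library (CPM of the cluster sum, linear axes from 0) of Hgf, Pdgfra and Pdgfrb in both stellate clusters, of Hgf and Pdgfb in 5 LSEC clusters, and of Met in 5 hepatocyte clusters, with CWHM-12 left of DMSO and a line at each group mean. Libraries with fewer than 20 cells of a cluster are not drawn. Cluster 8 lies above cluster 15 for Hgf and Pdgfra in each of the 6 libraries, and Met is highest in cluster 11.

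For each of the 8 genes, the 3 genes most like it over the 15 classes were found by Pearson correlation of mean log2(CPM + 1). These are descriptions over classes that share libraries. Pdgfra was closest to the collagen gene Col5a1 (r = 0.99), then Tnfrsf11b and Piezo2. Pdgfrb was closest to Rgs4 (r = 0.99), a regulator of G protein signalling, then Tnc and Kcne4. Hgf had less close partners, led by Nt5dc2 (r = 0.90), then Spaar and Ndufa4l2. Met was closest to Lsr (r = 0.97), a protein of tricellular junctions, then Stxbp6 and Mpzl2. For the ligands, Pdgfd was closest to Lamb2 (r = 0.97), Npdc1 and Nlgn2, and Pdgfb to Itga5 (r = 0.91), Pgm2 and Tpra1. Pdgfa was closest to Epb41l1 (r = 0.93), Myh10 and Kank2, and Pdgfc to 9130008F23Rik (r = 0.94), Prkar1b and Abcc3. Among the 8 genes themselves, Pdgfra and Pdgfrb were the most alike pair (r = 0.88), and Hgf had r = 0.76 with Pdgfrb and r = -0.32 with Met.

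None of the 8 genes passed the test for CWHM-12 against DMSO in any class. In 12 of the 15 classes at least 1 of them passed the filter on low counts, which gave 38 pairs of gene and class. By edgeR's quasi-likelihood test with a batch term and Benjamini-Hochberg adjustment over all genes of a class, 0 of the 38 pairs were called at 0.05, and 3 had an unadjusted p under 0.05, against 2.76% of the 96078 gene and class pairs tested in these classes. DESeq2 also called 0 of them. A missing call does not show that a gene was unchanged. In simulated counts, the edgeR fit called only 33.3% (stellate cells) and 49.1% (LSEC) of genes changed by 1 log2 unit. The estimates from the data were positive in 13 pairs and negative in 25, with a median of -0.16 log2 units. In 22 of the 38 pairs the sign differed under some alternative processing. The background rate of calls was as low. The share of genes called was 0% in vascular endothelium, monocytes, conventional dendritic cells and T cells, 0.0297% in scar-type macrophages and 0.727% in NK and ILC1 cells, with 0% of 10341 genes called in stellate cells, 0% of 11712 in LSEC, 0% of 11517 in Kupffer cells, 0% of 10343 in hepatocytes and 0.0111% of 9025 (Kdr, an endothelial VEGF receptor) in cholangiocytes. The median over all genes tested was 0.003 log2 units in stellate cells and 0.02 in LSEC.

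In stellate cells, Hgf differed by 0.05 log2 units (SE 0.22, CWHM-12 over DMSO) and Pdgfra by -0.33 (SE 0.24). Pdgfrb differed by 0.20 (SE 0.46), with 1.23 within batch 2024.6 and -0.61 within batch 2024.12. The adjusted p was 1 for each by edgeR's quasi-likelihood test. Without cluster 15 the values were 0.13, -0.26 and 0.43. Neither Pdgfra nor Hgf moved the same way in both batches, at 0.07 and -0.71 for Pdgfra and at 0.17 and -0.08 for Hgf.

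For Pdgfb in endothelium the errors were wide. In LSEC the log2 fold change was -0.27 (SE 0.55), from 0.60 within batch 2024.6 and -1.07 within batch 2024.12, and in vascular endothelium -0.10 (SE 0.35), from 0.63 and -0.59. The batch 2024.6 values rest on DMSO 2, the low library. In LSEC the estimate was 0.39 without DMSO 3, 0.06 without CWHM-12 3 and -0.61 without DMSO 2. The value without DMSO 3 rests on CWHM-12 1 against DMSO 1 and 2, since batch 2024.12 then holds CWHM-12 libraries only.

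Hgf in LSEC differed without overlap between the groups, but was not called. LSEC of CWHM-12 1 to 3 had 24.5, 24.6 and 27.02 CPM, against 17.98, 15.9 and 11.7 CPM in DMSO 1 to 3. Of all genes tested in LSEC, 4.68% lay higher in CWHM-12 without overlap. The log2 fold change was 0.85 (SE 0.24), with 0.49 within batch 2024.6 and 1.18 within batch 2024.12. The edgeR p of 0.0104 became 0.997 after adjustment. The stellate marker sum in LSEC was 184 to 252 CPM in the CWHM-12 libraries and 115 to 261 CPM in the DMSO libraries, with none of its 12 markers at 0 in all libraries. By cluster, the difference was seen in the periportal cluster 0, with 24.8, 33.1 and 32.4 CPM in CWHM-12 1 to 3, against 15.1, 15.3 and 10.1 CPM in DMSO 1 to 3. LSEC were spread differently over clusters in each group. Cluster 0 held 19.9%, 38.7% and 45.8% of them in CWHM-12 1 to 3, against 18.7%, 22.1% and 11.2% in DMSO 1 to 3, and cluster 5, led by Cyp26b1, held 4.1%, 18.5% and 39.3% in CWHM-12 libraries, against 2.9%, 2.0% and 9.0% in DMSO libraries. In cluster 1 the groups overlapped, at 26.1, 20.3 and 19.8 CPM in CWHM-12 libraries and 20.2, 17.5 and 15.2 CPM in DMSO libraries. Without DMSO 3 the log2 fold change was 0.50, with an unadjusted p of 0.113 by edgeR. Batch 2024.12 then holds CWHM-12 libraries only, so this value rests on CWHM-12 1 against DMSO 1 and 2.

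Of the 33 pairs measured in all 6 libraries, 4 had groups that did not overlap, 3 higher and 1 lower in CWHM-12. Beside Hgf in LSEC these were Pdgfb in scar-type macrophages, Pdgfa in Kupffer cells and Met in conventional dendritic cells. Pdgfb in scar-type macrophages was at 76.9, 89.6 and 81.0 CPM in CWHM-12 1 to 3, against 72.8, 16.1 and 68.3 CPM in DMSO 1 to 3 (log2 fold change 0.57, SE 0.43), where 5.32% of all genes tested lay higher without overlap. Pdgfa in Kupffer cells was at 27.1, 21.9 and 24.5 CPM in CWHM-12 libraries, against 20.3, 12.7 and 21.2 CPM in DMSO libraries (0.41, SE 0.25), where 4.76% lay higher without overlap. Different clusters held most Kupffer cells in different libraries. Cluster 2, led by Marco and Timd4, held 31.3%, 84.5% and 89.0% of them in CWHM-12 1 to 3, against 22.4%, 55.1% and 50.5% in DMSO 1 to 3. Cluster 6, led by Pf4 and Trem2 and with a median of 1378 UMIs per cell against 7502 in cluster 2, held 62.4%, 9.6% and 3.3% in CWHM-12 libraries, against 72.9%, 39.8% and 43.1% in DMSO libraries. Pdgfa overlapped between the groups within cluster 2, at 22.4 to 31.3 CPM in CWHM-12 libraries and 13.6 to 22.8 CPM in DMSO libraries, and did not within cluster 6, at 17.9 to 34.9 CPM and 11.3 to 15.9 CPM. Met in conventional dendritic cells was at 25.4, 33.1 and 17.9 CPM in CWHM-12 libraries, against 48.4, 70.8 and 34.6 CPM in DMSO libraries (-0.79, SE 0.40), where 5.46% lay lower without overlap. Cluster 31, which holds most of the Met of this class, made up 42.3%, 50.8% and 27.1% of it in CWHM-12 1 to 3, against 42%, 53.3% and 50.5% in DMSO 1 to 3, so CWHM-12 3, the lowest library, had the smallest share. Within cluster 31 Met was at 48.3 and 52.3 CPM in CWHM-12 1 and 2, against 74.1, 112 and 57.4 CPM in DMSO 1 to 3, and CWHM-12 3 had too few cells of it. Over these classes together 4.96% of gene and class pairs lay higher and 5.38% lower without overlap, and the 4 of 33 pairs are 12.1%.

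Mesothelium gave the largest estimate of the 38. Pdgfra was at 28.6 and 9.9 CPM in CWHM-12 2 and 3, against 63.4, 34.4 and 207 CPM in DMSO 1 to 3, and its log2 fold change was -3.52 (SE 0.59, edgeR adjusted p = 0.149). CWHM-12 1 was left out for having 11 mesothelial cells. Batch 2024.6 then held only DMSO libraries, so the fold change with a batch term rests on CWHM-12 2 and 3 against DMSO 3 alone. The same holds for every gene in mesothelium. Mesothelium of DMSO 3 held stellate transcripts. Reln was at 741 CPM there and at most 38.2 CPM in the other libraries, Lrat at 347 CPM and at most 12.7 CPM, and Hgf at 70.0 CPM and 0 in the others. The stellate marker sum was 7428 to 8623 CPM in the CWHM-12 libraries and 6984 to 15574 CPM in the DMSO libraries, with Dcn its most abundant gene. Without DMSO 3 and without a batch term, an alternative chosen after these values were seen, the log2 fold change was -1.50 (SE 0.61, edgeR adjusted p = 0.345). That fit set CWHM-12 2 and 3, both of batch 2024.12, against DMSO 1 and 2, both of batch 2024.6. Treatment and batch cannot be told apart in it. Of 5897 genes, 4 were called in mesothelium (0.0678%), all lower in CWHM-12, namely Cxcl12, Colec11, Masp1 and Agtr1a. In the fit without DMSO 3 and without a batch term, 0 of 6193 were called. The call turned on single libraries. Without DMSO 1, Pdgfra in mesothelium was called at -3.55 (edgeR adjusted p = 3.6e-07) with 157 of 5609 genes. That fold change again rests on DMSO 3 as the only DMSO library. Without CWHM-12 2, CWHM-12 3 or DMSO 2, 0 genes were called. Met in mesothelium was -0.90 (SE 0.41) with all 5 libraries and the batch term, again set against DMSO 3 alone. It was -1.39 (SE 0.33, adjusted p = 0.143 by edgeR) without DMSO 3 and without a batch term. Markers of other cell types differed between the mesothelial groups without overlap. The Kupffer cell marker sum was 5559 to 7929 CPM in the CWHM-12 libraries and 39.02 to 3174 CPM in the DMSO libraries, and the LSEC marker sum was 1635 to 1877 CPM in the CWHM-12 libraries and 95.1 to 889 CPM in the DMSO libraries. The part of this RNA in the Pdgfra and Met values was not tested.

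In hepatocytes, Hgf was at 10.7, 4.1 and 2.1 CPM in CWHM-12 1 to 3, against 28.7, 15.8 and 5.6 CPM in DMSO 1 to 3 (log2 fold change -1.10, SE 0.43, edgeR adjusted p = 0.999). The stellate marker sum in hepatocytes was 133 to 365 CPM in the CWHM-12 libraries and 285 to 1239 CPM in the DMSO libraries, and it ranked the libraries nearly as Hgf did. Its part in the Hgf values was not tested. Met in hepatocytes differed by -0.46 (SE 0.36), and by -0.88 (SE 0.61) without clusters 11 and 30. In cholangiocytes Met differed by -0.23 (SE 0.21), Pdgfd by -0.17 (SE 0.24), Pdgfc by -0.14 (SE 0.23), Pdgfa by 0.04 (SE 0.22) and Pdgfb by 0.29 (SE 0.29). For the macrophage ligand Pdgfc, the estimates were -0.45 (SE 0.33) in Kupffer cells and -0.68 (SE 0.32) in scar-type macrophages, with an adjusted p of 1 in both by edgeR.

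**Figure D4:**
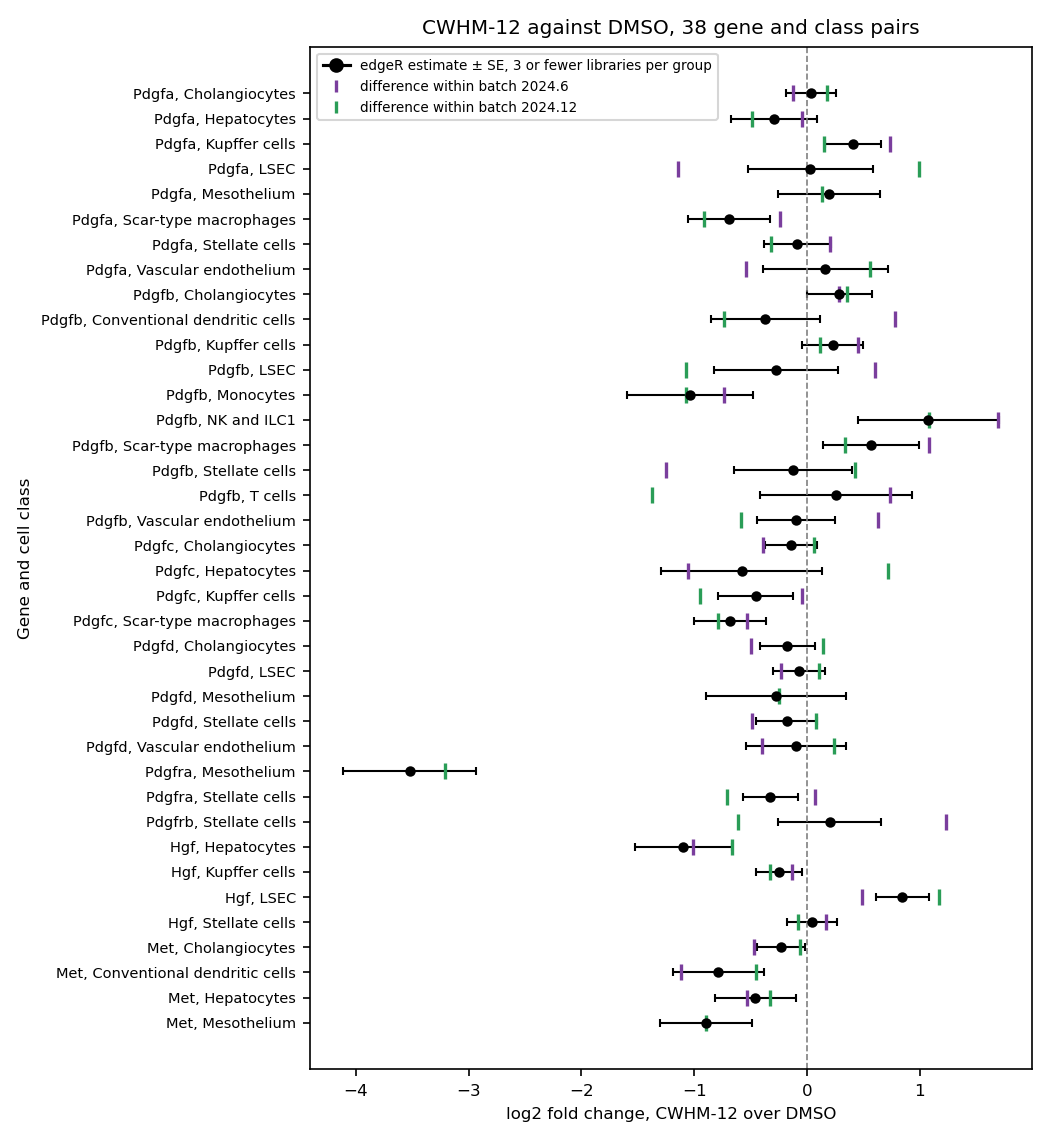
Log2 fold change of CWHM-12 over DMSO (horizontal axis) for the 38 pairs of gene and class (rows). Black points with bars are the edgeR estimate ± SE from 6 libraries or, in mesothelium and monocytes, 5, and coloured ticks are differences within a batch where both groups were present. The estimate is above 0 in 13 pairs and below in 25, Pdgfra in mesothelium is at -3.52 and Hgf in LSEC at 0.85, and no pair passed the adjusted threshold.

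Whether the treatment acted differently on stellate cells and LSEC was tested as an interaction. Of 11980 genes 0 were called (0%), and 652 had an unadjusted p under 0.05. None of the 6 members that passed the filter was called. For Hgf the stellate effect minus the LSEC effect was -0.79 (SE 0.24, edgeR adjusted p = 0.811), and for Pdgfb it was 0.56 (SE 0.52, adjusted p = 0.956). Without cluster 15, 3 of 11853 genes and none of the members were called by edgeR, and the values were -0.77 (SE 0.20, adjusted p = 0.409) for Hgf and 1.28 (SE 0.76, adjusted p = 0.852) for Pdgfb. In the stellate class, cluster 15, which also held LSEC markers, had 340 Pdgfb UMIs and cluster 8 had 33. The Pdgfb value without cluster 15 thus rests on 33 stellate UMIs. Cluster 15 made up from 15.7% (DMSO 3) to 53.1% (CWHM-12 3) of stellate cells. Its part in the Pdgfb values was not tested. The interaction results changed with single libraries, in fits that kept cluster 15. Without CWHM-12 1, 231 of 12115 genes were called, and so were Hgf at -1.28 (SE 0.24, adjusted p = 0.0185) and Pdgfb at 1.47 (SE 0.32, adjusted p = 0.0341). In that fit the only CWHM-12 libraries are from batch 2024.12, which leaves 1 DMSO library beside them. Without DMSO 3 the Pdgfb estimate was -1.65 (SE 0.58, edgeR adjusted p = 0.768) and that of Hgf -0.30 (SE 0.25). There CWHM-12 1 is the only CWHM-12 library with DMSO libraries in its batch.

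Genes that process the ligands, bind the receptors or respond to them were read from 6 lists with 64 entries. Nrp1 stood in both the list of MET partners and that of PDGF receptor partners. By edgeR, 0 of the listed genes rose and 0 fell in stellate cells, LSEC, Kupffer cells, hepatocytes and cholangiocytes. The HGF activation list (activating proteases and their inhibitors) had 8 of 11 genes measured in stellate cells with a median of 0.35 log2 units, and 7 in hepatocytes with a median of -0.30. The PDGF receptor partners had 10 of 10 measured in stellate cells with a median of 0.10, and the shared kinase response genes 12 of 15 with a median of 0.01, against 0.003 over all genes there.

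The named genes of smallest p in these lists stayed short of the threshold, with an adjusted p between 0.133 and 1 by edgeR. In stellate cells Ptpn11, the phosphatase SHP2 that binds both receptor types, averaged 70.5 ± 11.9 CPM in CWHM-12 and 109.97 ± 15.1 CPM in DMSO libraries (log2 fold change -0.64, SE 0.23). The immediate early gene Egr1 averaged 600.1 ± 37.1 and 869 ± 523 CPM (-0.63, SE 0.33), and Myc 28.3 ± 7.83 and 35.3 ± 5.30 CPM (-0.48, SE 0.26). In LSEC the ERK target Etv5 averaged 45.7 ± 14.03 CPM in CWHM-12 and 26.2 ± 6.68 CPM in DMSO libraries (0.56, SE 0.23), the macrophage growth factor Csf1 166 ± 31.5 and 126 ± 14.7 CPM (0.48, SE 0.20), and Plcg1 53.5 ± 8.12 and 35.2 ± 12.1 CPM (0.48, SE 0.27).

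In hepatocytes, Hgfac, the protease that activates HGF, had 61.5, 83.9 and 56.9 CPM in CWHM-12 1 to 3, against 43.96, 42.4 and 31.7 CPM in DMSO 1 to 3. The groups did not overlap. Of the genes tested in hepatocytes, 2.84% lay higher in CWHM-12 without overlap and 6.16% did not overlap in either direction. The log2 fold change was 0.85 (SE 0.34, edgeR adjusted p = 0.999). Egr1 in hepatocytes averaged 60.5 ± 22.1 CPM in CWHM-12 and 130.3 ± 45.2 CPM in DMSO libraries (-1.21, SE 0.47). Spred1, an inhibitor of Ras signalling, averaged 36.6 ± 2.43 and 27.7 ± 4.64 CPM (0.53, SE 0.30). In Kupffer cells Kitl averaged 23.4 ± 9.04 CPM in CWHM-12 and 37.4 ± 8.89 CPM in DMSO libraries, the adaptor Grb2 513 ± 23.2 and 423 ± 69.0 CPM, and the scavenger receptor Lrp1 417 ± 18.5 and 296 ± 129 CPM.

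In cholangiocytes Ptprb, an endothelial receptor phosphatase, had the smallest p of the lists. It was at 128, 70.8 and 91.3 CPM in CWHM-12 1 to 3, against 21.97, 16.2 and 33.4 CPM in DMSO 1 to 3 (log2 fold change 1.86, SE 0.31, edgeR adjusted p = 0.133). The groups did not overlap. Of the genes tested there, 5.77% lay higher in CWHM-12 without overlap and 10.8% did not overlap in either direction. The LSEC marker sum in cholangiocytes was 395 to 491 CPM in the CWHM-12 libraries and 68.0 to 149.6 CPM in the DMSO libraries. In NK and ILC1 cells, where 0.727% of 3162 genes were called, Ptprb rose by 2.15 log2 units (SE 0.39, edgeR adjusted p = 0.0185), with 1576, 296 and 68.4 CPM in CWHM-12 1 to 3, against 356, 398 and 42.8 CPM in DMSO 1 to 3. The highest value was that of CWHM-12 1, and the groups overlapped. This call was lost, with 0 genes called in NK and ILC1 cells by edgeR, without CWHM-12 1, without DMSO 3, with no batch term, with the replicate block in its place and with classes from marker scores. The LSEC marker sum there was 257 to 4719 CPM in the CWHM-12 libraries and 161 to 1164 CPM in the DMSO libraries. The part of endothelial RNA in both values was not tested. The protease inhibitor Pzp in cholangiocytes averaged 83.8 ± 27.1 CPM in CWHM-12 and 175 ± 60.0 CPM in DMSO libraries (-0.79, SE 0.26), and Csf1 51.0 ± 39.6 and 33.9 ± 25.9 CPM (1.09, SE 0.41).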

How the data were processed

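Single-cell RNA of 6 mouse liver libraries was made on the BD Rhapsody platform with its whole transcriptome kit, as the labels state. The deposited files hold whole-number UMI counts for each gene in each barcode, as their headers state, and the submitters' processing notes name the mouse build GRCm39. Which aligner, annotation and barcode selection the authors used is not given in the sources used here. Every library listed 10000 barcodes, and no pair of libraries shared more than 5.

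A cell needed at least 300 genes, 500 UMIs and at most 30% mitochondrial UMIs. Cells above a Scrublet score of 0.25 (scanpy 1.11.5) were removed, 1.11% to 2.72% of a library. That score was chosen because the automatic thresholds marked fewer than 0.5% in 4 libraries. Clusters came from 2000 variable genes without the 8 genes studied, 40 principal components, 20 neighbours and Leiden clustering (leidenalg 0.10.2, resolution 1.5), with no integration of libraries. There were 45 clusters, of which 6 stayed unnamed, and names came by hand from marker lists and leading genes.

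Counts were summed per class and library with at least 20 cells. Tests used edgeR 4.0.16 in R 4.3.3 with the quasi-likelihood test, TMM, filterByExpr, a batch term and Benjamini-Hochberg adjustment at 0.05 within a class. The SE of a fold change was derived from its test statistic. For a single batch, mean log2 CPM of the groups was subtracted, with 2 as prior count. The fit was tested on simulated counts, with changes set in genes at 20 CPM or more. A change of 1 log2 unit was called for 33.3% of 108 genes in stellate cells and 49.1% of 108 in LSEC. A change of 2 log2 units was called for 96.7% and 100% of 92 genes. Of the unchanged genes, 8 and 2 were called. DESeq2 1.42.0 was an alternative. Levels are CPM on the total UMIs of a class in a library, and errors are SDs over libraries. Neighbouring classes were compared by an exact two-sided sign-flip test of log2(CPM + 1) over libraries, for 8 genes, and no adjusted p was below 0.1. Intervals cover counting error only. Levels are not compared between genes.

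The labels describe each library as cells from a wild-type male mouse but give no animal identifier. The p-values here rest on the spread among libraries, and that spread could be technical. The replicate numbers were not taken to pair libraries, since correlations of same-numbered libraries ranged from -0.09 to 0.48 and not all exceeded 0.1. The 8 genes and the lists were chosen with earlier results of these data known. Named genes are the 8 in every class where they passed the filter, the 3 most like each of them, and, in the 5 main classes, list genes that passed or else, among those averaging 20 CPM or more, the 3 with the lowest p. Ptprb in NK and ILC1 cells, Kdr and the genes called in mesothelium were named after their values were seen.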

Additional observations from a re-analysis of the deposited data

Results flagged for a closer look

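Pdgfb in the unnamed cluster 22 was set apart because it was higher in the CWHM-12 libraries, in cells that none of the class comparisons use. It was at 59.4 CPM there (222 UMIs, 95% exact Poisson interval 51.9 to 67.8) and at 40.5 CPM in the DMSO libraries (135 UMIs, 33.95 to 47.9). The intervals cover counting error only and the cells were pooled over libraries, so the difference was not tested over replicates. The 8 genes were screened in 9 groups of cells without a test, and only for levels higher in CWHM-12. CWHM-12 2 gave 202 of the 421 cells. The cluster held the stellate marker list at 16876 CPM, the Kupffer cell list at 10747 CPM and the LSEC list at 5865 CPM. It had 8.61 Pdgfb UMIs per 1000 UMIs of the LSEC list, against 4.51 in LSEC. The ratio was 7.64 in unnamed cluster 13, which held the Kupffer cell list at 11864 CPM and the LSEC list at 10588 CPM. Kupffer cells themselves held a median of 11.5% of the Pdgfb UMIs of a library. The part of their RNA in these ratios was not tested. Cluster 22 had a median of 14283 UMIs per cell, against 2987 in stellate cells. Pooled levels lower in CWHM-12, with separate intervals, were present as well. Pdgfra in cluster 22 was at 79.2 CPM in the CWHM-12 and 100.5 CPM in the DMSO libraries. Hgf in the fibroblasts led by Dpt was at 139 and 270 CPM. Pdgfb in the unnamed cluster led by Mpo was at 2.6 and 28.6 CPM, and Pdgfd in unnamed cluster 13 at 13.2 and 19.4 CPM. These differences were likewise not tested over replicates.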

How the results depend on the processing

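Of the 570 log2 fold changes of the 8 genes under alternatives, 514 kept their direction and side of the threshold, 54 changed sign and 2, both Pdgfra in mesothelium, passed it. Counted by pair of gene and class, 22 of 38 had a sign that differed under at least 1 alternative. With no filter on low counts, 2 pairs were called among the 8 genes, and the genes called were 23 in stellate cells, 7 in LSEC, 20 in Kupffer cells, 6 in hepatocytes and 37 in cholangiocytes. DESeq2 called 2 in LSEC, 3 in Kupffer cells, 2 in hepatocytes and 7 in cholangiocytes. In cholangiocytes, where 1 gene was called, the count was 3 with no batch term, 3 with the replicate block in place of the batch term, and 0 with the stricter cell filter or with classes from marker scores. Leaving out 1 library gave 0 to 1 called pairs of the 8 genes, 0 to 2 genes in hepatocytes, 0 to 20 in cholangiocytes (20 without DMSO 2) and 0 to 2 of the 8 genes in the interaction (2 without CWHM-12 1). The replicate numbers share no source in the labels, and the block called none of the 8 genes. With no batch term, Pdgfb was 0.062 in vascular endothelium and 0.26 in stellate cells, and Pdgfa -0.47 in mesothelium. With the replicate block, Pdgfb was 0.25 in vascular endothelium and -0.10 in T cells, and Pdgfa -0.18 in mesothelium. Pdgfa in LSEC was -0.021 by DESeq2 and -0.0016 under the stricter cell filter, and Pdgfa in vascular endothelium -0.027 with doublets kept. With classes from marker scores, Pdgfa was -0.33 in vascular endothelium and -0.26 in mesothelium, Pdgfd 0.12 in vascular endothelium and Pdgfb -0.21 in scar-type macrophages. Under alternatives chosen after seeing the data, Pdgfa was 0.18 in stellate cells without cluster 15, 0.30 in hepatocytes without clusters 11 and 30, and -0.73 in mesothelium without DMSO 3 and without a batch term. Leaving out 1 library at a time moved Pdgfa from -1.21 to 1.05 in LSEC, -0.63 to 0.72 in vascular endothelium, -0.28 to 0.15 in stellate cells, -0.15 to 0.52 in mesothelium and -0.16 to 0.19 in cholangiocytes. Pdgfb ranged from -0.91 to 0.39 in LSEC, -0.59 to 0.50 in vascular endothelium, -1.32 to 0.58 in stellate cells, -0.65 to 0.0045 in conventional dendritic cells and -0.39 to 0.66 in T cells. Pdgfc ranged from -0.41 to 0.086 in cholangiocytes and -1.19 to 0.54 in hepatocytes. Pdgfd ranged from -0.25 to 0.11 in LSEC, -0.53 to 0.28 in vascular endothelium, -0.50 to 0.090 in stellate cells, -0.48 to 0.024 in mesothelium and -0.53 to 0.15 in cholangiocytes. In stellate cells, Pdgfra ranged from -0.70 to 0.071, Pdgfrb from -0.61 to 1.05 and Hgf from -0.067 to 0.17. The level of Pdgfa in mesothelium minus cholangiocytes ranged from -0.32 to 0.087, and that of Pdgfb in vascular endothelium minus LSEC from -0.041 to 0.25. In classes with 6 libraries, fits with a batch term rest on batch 2024.6 alone without DMSO 3, and on batch 2024.12 alone without CWHM-12 1. The cause of the changes under alternatives was not tested. The class of highest level was another in 5 of 12 settings for Pdgfa, in 1 for Pdgfb and in 0 for each of the other genes. Low counts limit Hgf outside stellate cells and both PDGF receptors outside mesenchymal cells.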
